A study of Mus musculus with 26 samples.

Results

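The receptor chains through which interleukin-2 (IL-2), IL-3, IL-4 and their relatives signal were followed across natural and synthetic IL-22 receptor cells. All probe sets annotated to exactly 1 of 10 chains were taken, and 9 chains were found, each with 1 probe set, among 35556 probe sets and 19938 genes. Il2rg, the gamma chain shared by IL-2, IL-4, IL-7, IL-15 and IL-21, is not analysed here.

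RNA was measured on 26 Affymetrix arrays in Ba/F3/gp130 cells, a murine line that needs IL-3 or a cytokine of the IL-6 family to grow and that carries added gp130. All cells had been kept in Hyper-IL-6, a fusion of IL-6 with its soluble receptor, and were then starved for 4 h. Synthetic receptor cells carried IL-10R2 with an mCherry nanobody and IL-22Rα1 with a GFP nanobody. They were given a GFP-mCherry fusion (n = 6), which can bind both chains, or mCherry-Fc (n = 6), a dimer that can bind only the IL-10R2 chain, or were left untreated (n = 6). Natural receptor cells carried plain IL-10R2 and IL-22Rα1 and were given IL-22 (n = 4) or left untreated (n = 4). Each protein was used at 100 ng/ml, for 2 h where the labels give no other time. No group was given a control protein, the labels do not say whether each line was 1 clone, and they do not say that replicates were separate cultures, so p-values measure only the spread between these samples.

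Most of these chains work in pairs. An alpha chain binds one cytokine, and a shared chain (Il2rg, Il2rb or the beta chains Csf2rb and Csf2rb2) adds affinity and signal, so a cell usually needs both to answer a cytokine fully. The chains carry no enzyme of their own. Janus kinases bound to them phosphorylate STAT proteins, mainly STAT5 below the IL-2, IL-3, IL-7 and GM-CSF receptors, STAT6 below the IL-4 receptor and STAT3 below the IL-21 receptor. STAT5 raises Il2ra in lymphocytes, and STAT6 raises Il4ra. IL-22 acts mainly through STAT3. Ba/F3 cells are usually grown on IL-3, which binds Il3ra together with Csf2rb or, in mice, Csf2rb2.

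All values below are log2 intensities, the brightness of a probe set on a log2 scale on which 1 unit is a doubling. Levels of different probe sets were not tested against each other. Levels set beside array medians and means of gene lists are descriptions only. Differences were tested with limma's moderated test in one model of all 26 arrays, and adjusted p means Benjamini-Hochberg adjustment over 19938 genes, with a threshold of 0.05. SE is the standard error of the log2 difference. Array medians lay between 6.06 and 6.28, and arrays of one group correlated at 0.981 to 0.994. The cells are labelled as pro-B cells. Cd79a and Cd79b, parts of the B cell receptor, had group means of 9.33 to 9.72 and 8.80 to 9.08, while the early B lineage genes Rag1, Rag2, Dntt, Ebf1 and Pax5 all had group means of 5.55 or less, below the array medians. Of the other listed genes, the surrogate light chain gene Vpreb2 had group means of 6.97 to 7.30, above the array medians, Igll1 (6.19 to 6.44) and Vpreb3 (5.71 to 6.22) were near them, and Vpreb1, Blnk and Cd93 were below. The mean of the 13 measured genes of this list ranged from 5.68 to 6.0 over all arrays. Some natural receptor arrays stood apart. Those numbered 4 and 5 (1 IL-22 and 2 untreated arrays) had high levels of 3 of the 9 listed myeloid genes, Itgam, Mpo and Lyz2. The others varied little within untreated natural cells. Elane, Prtn3 and Spi1 had an SD of 0.06 there, Csf1r 0.12, Csf3r 0.18 and Cd14 0.22. The SD was 2.1 for Mpo, 1.76 for Itgam and 1.58 for Lyz2. Itgam, an integrin chain of myeloid cells, was at 12.05 on IL-22 array 5, against 11.73 and 11.99 on untreated arrays 4 and 5, and at no more than 8.98 on the other natural arrays. Mpo, a granule enzyme of myeloid cells, was at 10.87 on that IL-22 array, against 10.62 and 11.00 on the same untreated arrays, and at no more than 7.19 on the other natural arrays. Lyz2 was at 7.89, 7.53 and 8.21 on these arrays, and at no more than 5.24 on the other natural arrays. The mean of the 9 myeloid marker genes includes Itgam, Mpo and Lyz2. It ranged from 7.30 to 8.47 on IL-22 arrays and from 7.22 to 8.42 on untreated natural arrays. The 18 synthetic arrays lay between 6.68 and 7.00. Between the untreated lines 4 of these 9 genes were lower in synthetic cells, with Itgam lowest at -4.75 (adjusted p = 4.65e-07), and 1 was higher. Among all genes 15.2% were called there, 6.62% as lower and 8.6% as higher. Results that involve natural cells use all arrays. Values without these 3 arrays are given beside many of the results, mainly where a call changed, a choice made after the data were seen. Without natural arrays 4 and 5 Mpo and Lyz2 no longer differed past the test between the untreated lines (log2 0.03 and -0.11). Itgam and Spi1 still did, at log2 -3.22 and -0.35. The part that the high Itgam, Mpo and Lyz2 signal had in the results was not tested. In bulk RNA, fewer cells of a type and less RNA per cell cannot be told apart.

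The promoter windows of 8 chains are held in RefSeq's table for the build GRCm38.p6, each reaching from 250 bases before to 50 bases after the start of the gene. Il2rg is among the 8. Csf2rb and Il2rb had no window and were not searched. The 4 windows below are shown because Il2ra and Il4ra had the largest changes of all chains, and because Csf2rb2 and Il7r are the chains whose window holds the STAT dimer motif TTCNNNGAA, whose match is in capitals.
Il2ra, chr2:11642542-11642841, + strand: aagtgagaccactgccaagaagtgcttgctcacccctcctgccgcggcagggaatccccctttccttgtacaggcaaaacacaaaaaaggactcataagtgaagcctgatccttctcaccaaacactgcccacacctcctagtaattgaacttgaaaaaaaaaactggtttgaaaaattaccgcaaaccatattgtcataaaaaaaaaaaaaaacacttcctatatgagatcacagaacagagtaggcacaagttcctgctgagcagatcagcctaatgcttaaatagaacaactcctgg
Il4ra, chr7:125552021-125552320, + strand: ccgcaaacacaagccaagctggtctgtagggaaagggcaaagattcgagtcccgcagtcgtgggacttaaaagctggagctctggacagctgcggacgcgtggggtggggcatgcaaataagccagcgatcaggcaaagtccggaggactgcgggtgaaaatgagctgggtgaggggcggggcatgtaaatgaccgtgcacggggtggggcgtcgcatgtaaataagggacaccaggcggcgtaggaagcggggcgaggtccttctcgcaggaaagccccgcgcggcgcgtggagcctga
Csf2rb2, chr15:78305672-78305971, - strand: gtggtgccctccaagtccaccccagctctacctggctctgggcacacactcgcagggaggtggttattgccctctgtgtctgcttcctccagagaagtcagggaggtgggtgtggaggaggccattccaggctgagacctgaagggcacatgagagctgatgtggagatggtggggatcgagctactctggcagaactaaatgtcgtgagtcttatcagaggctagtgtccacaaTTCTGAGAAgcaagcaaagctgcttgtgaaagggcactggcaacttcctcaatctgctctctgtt
Il7r, chr15:9529827-9530126, - strand: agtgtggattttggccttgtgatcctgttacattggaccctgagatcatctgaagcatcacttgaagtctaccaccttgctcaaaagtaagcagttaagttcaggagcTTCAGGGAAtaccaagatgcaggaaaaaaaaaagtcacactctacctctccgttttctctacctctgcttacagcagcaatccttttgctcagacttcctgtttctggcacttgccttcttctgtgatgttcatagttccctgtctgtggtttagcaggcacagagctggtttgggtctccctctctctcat
The motif TTCNNNGAA reads the same on both strands and was found in 8.3% of 32851 windows of this length. In Csf2rb2 the match TTCTGAGAA begins 15 bases before the start of the gene, at -15, and in Il7r the match TTCAGGGAA begins at -142. The longer spacing TTCNNNNGAA, preferred by STAT6 and also the same on both strands, was found in 6.95% of all windows and in none of the 8 chains' windows. These are matches of letters within short windows and say nothing about binding elsewhere.

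IL-22 raised 4 of the 9 chains and lowered none. The 4 were Il2ra (15.7-fold), Il4ra (14.9-fold), Csf2rb (1.64-fold) and Csf2rb2 (1.54-fold), and they were also the 4 whose IL-22 and untreated arrays did not overlap. Among all genes 11.4% were called, 5.39% as higher and 6.03% as lower, and 11.4% had groups that did not overlap. GFP-mCherry in synthetic receptor cells raised Il4ra alone (2.19-fold) and lowered Csf2ra (1.36-fold) and Csf2rb2 (1.28-fold), which is 3 of 9 chains where 26% of all genes were called, 14.2% as higher and 11.8% as lower. mCherry-Fc likewise raised Il4ra (1.73-fold), and it lowered Csf2ra (1.24-fold) and Il21r (1.19-fold), again 3 of 9, where 26.9% of all genes were called, 14% as higher and 13% as lower. Against mCherry-Fc, GFP-mCherry gave 1 called chain, Il4ra (1.27-fold higher), where 1.09% of genes were called, 0.722% as higher and 0.371% as lower. The other chains lay between -0.21 and 0.13 in that comparison. The untreated lines differed in 4 chains, where 15.2% of genes were called (8.6% as higher, 6.62% as lower), with Il2rb (2.94-fold), Il2ra (2.46-fold) and Il4ra (1.22-fold) lower and Csf2ra (2.10-fold) higher in synthetic receptor cells. Groups did not overlap for 3 chains with GFP-mCherry, 3 with mCherry-Fc, 1 between these ligands and 4 between the untreated lines, where 14.1%, 11.3%, 2.96% and 10% of all genes did not. For the synthetic ligands against untreated cells the share of called chains, 33.3%, was near the background, and nothing is read from those counts. The median log2 difference of the 9 chains was 0.43 with IL-22, -0.09 with GFP-mCherry and 0.00 with mCherry-Fc, against medians of all genes of -0.02, -0.04 and -0.04.

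Some markers of other lineages were called as well. Among all genes 11.4% were called with IL-22, 26% with GFP-mCherry, 26.9% with mCherry-Fc and 15.2% between the untreated lines. With IL-22, 3 of 5 measured erythroid genes were lower, namely Klf1 (log2 -1.12), Tfrc (-0.33) and Epor (-0.26, a call lost without natural arrays 4 and 5 at an adjusted p of 0.0576), and the mean of the 5 ranged from 8.05 to 8.26 on IL-22 arrays, against 8.45 to 8.51 on untreated natural arrays. Gata2, a regulator of mast cells and progenitors, was lower with IL-22 as well (log2 -1.04). It was 1 of 8 genes of the mast cell and basophil list (12.5%), near the share of all genes. Klf1 was also lower with GFP-mCherry (-0.40) and mCherry-Fc (-0.25), whereas Tfrc and Epor were higher with both, and the mean of the 5 genes lay at 8.64 to 8.76, 8.65 to 8.79 and 8.58 to 8.78 on GFP-mCherry, mCherry-Fc and untreated synthetic arrays. Between the untreated lines 3 of the 5, Klf1 (0.57), Tfrc (0.31) and Gata1 (0.23), were higher in synthetic cells. Gata1 lost its call without natural arrays 4 and 5 (log2 0.27, adjusted p = 0.0567). Of 8 measured T cell genes 2 (25%) were lower with GFP-mCherry, 4 (50%) with mCherry-Fc and none with IL-22. The share with GFP-mCherry was near that of all genes. The 4 called with mCherry-Fc differed by -0.20 to -0.27. The mean of this list was 5.40 to 5.73 over all arrays, below the array medians. The part of these genes in the results of the chains was not tested.

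**Figure D1:**
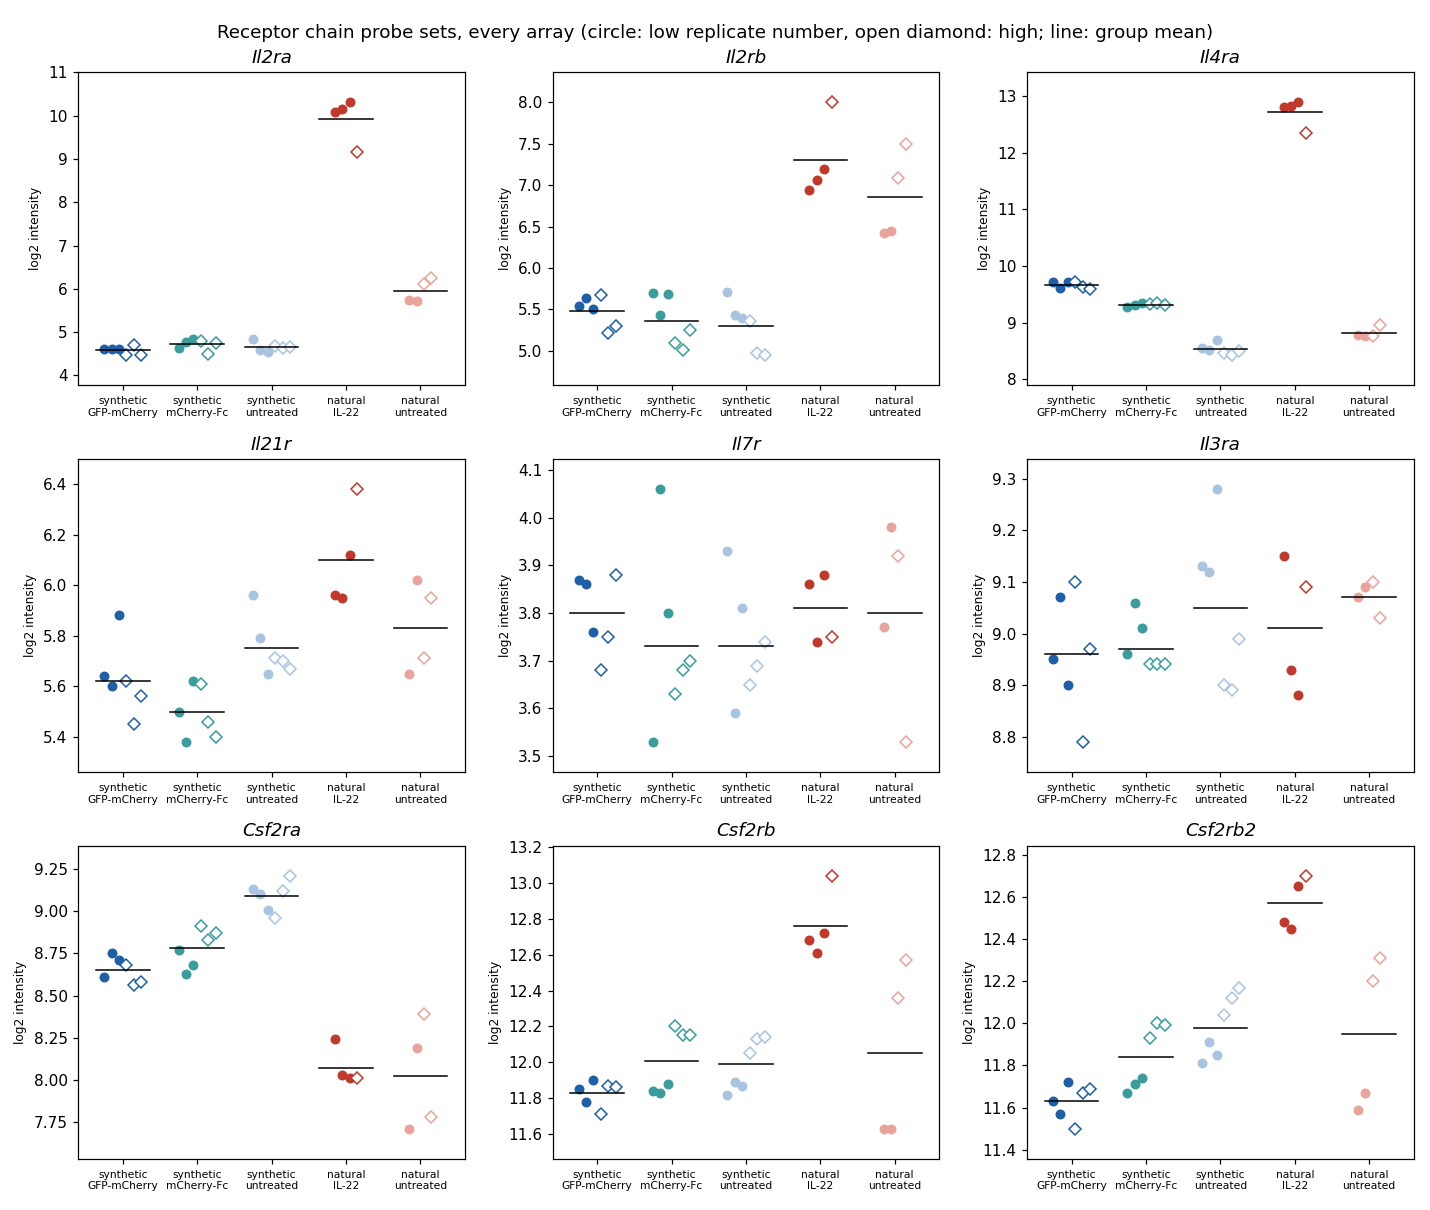
Log2 intensity (vertical axis, a separate range in each panel) of the 9 chains on each of the 26 arrays by group; filled circles are low replicate numbers (synthetic 7 to 11, natural 1 to 3), open diamonds are high ones, and lines are group means. Il2ra and Il4ra stand far above all other groups in natural cells given IL-22, Il4ra forms separate bands in all 3 synthetic groups, and Il3ra and Il7r lie at one level throughout.

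Il4ra encodes the chain that binds IL-4 and, with Il13ra1, forms the receptor for IL-13. It was the only chain that all 3 ligands raised. GFP-mCherry arrays had a lowest, median and highest value of 9.60, 9.67 and 9.71, mCherry-Fc arrays of 9.27, 9.32 and 9.35, and untreated synthetic arrays of 8.43, 8.52 and 8.69. The 3 synthetic groups thus formed 3 bands with no overlap. GFP-mCherry exceeded untreated cells by 1.13 (SE 0.07, adjusted p = 1.28e-12) and mCherry-Fc exceeded them by 0.79 (SE 0.07, adjusted p = 5.84e-09). The step between the ligands was 0.35 (SE 0.07, adjusted p = 0.00389), seen in all 3 same-numbered pairs at 0.26 to 0.31. With the replicate number as a block it was 0.29 and no longer passed the test, with an adjusted p of 0.375.

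In natural receptor cells the probe set was at 12.81, 12.82, 12.89 and 12.34 on IL-22 arrays 1, 2, 3 and 5, against 8.78, 8.77, 8.77 and 8.96 on untreated arrays 2, 3, 4 and 5. All 4 IL-22 arrays were far above the untreated ones, and array 5 was the lowest with IL-22 and the highest without it. The difference was 3.89 (SE 0.08, adjusted p = 1.53e-23), 4.06 without natural arrays 4 and 5 and 3.48 within them. Before any ligand the synthetic line was lower, at 8.53 ± 0.09 (SD, n = 6) against 8.82 ± 0.09 (n = 4) in the natural line, by 0.29 (SE 0.08, adjusted p = 0.00778). This small difference lost its call without untreated natural array 5 (log2 -0.24, adjusted p = 0.0506) and within low replicate numbers (log2 -0.18, adjusted p = 0.0944). It was -0.25 (adjusted p = 0.0115) without both natural arrays 4 and 5. The order of the 5 groups, from natural IL-22 through GFP-mCherry, mCherry-Fc and untreated natural to untreated synthetic cells, had a called difference at each step.

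The response of Il4ra was smaller in the synthetic line with each ligand. The response to GFP-mCherry minus that to IL-22 was -2.76 (SE 0.11, adjusted p = 1.22e-16), and the response to mCherry-Fc minus that to IL-22 was -3.11 (SE 0.11, adjusted p = 5.52e-18). These were -2.93 and -3.28 without natural arrays 4 and 5. Both lines differ in their receptors and in their untreated state as well as in the ligand, so these differences cannot be told apart by source.

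**Figure D2:**
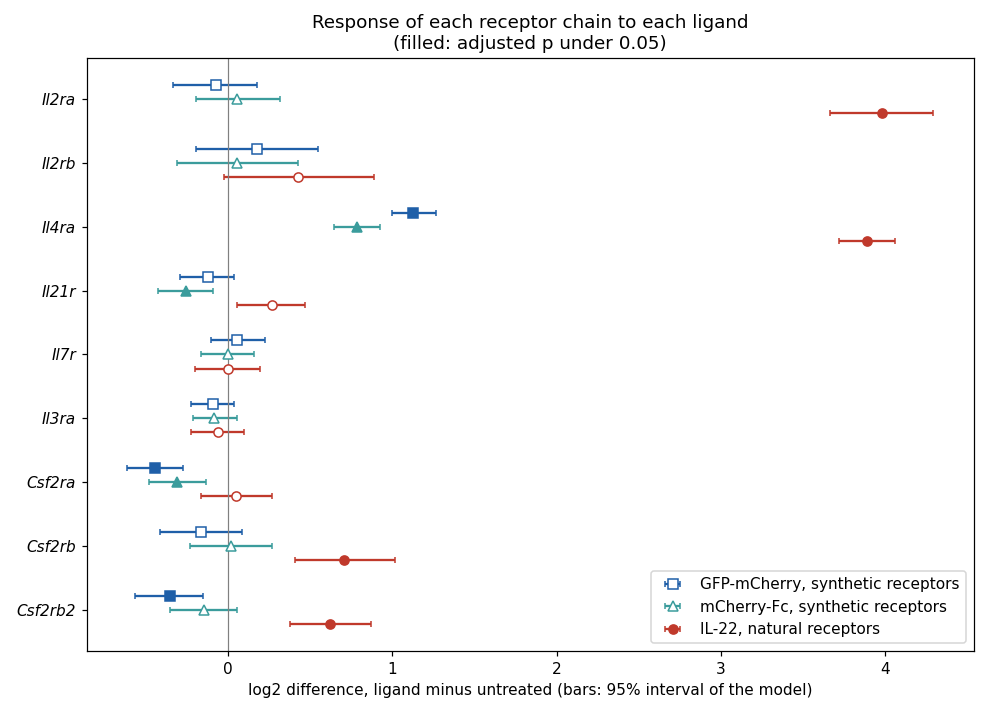
Log2 difference of each chain between ligand and untreated cells (horizontal axis) with 95% intervals of the model, for GFP-mCherry and mCherry-Fc in synthetic and IL-22 in natural receptor cells; filled symbols passed the adjusted threshold. Il2ra has an interval of 3.66 to 4.29 with IL-22 and intervals that span 0 with both other ligands, whereas Il4ra lies to the right of 0 with all 3.

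Il2ra encodes the alpha chain of the IL-2 receptor, which raises affinity for IL-2 and does not signal itself. It showed the widest span of group means of all chains, 5.35. IL-22 arrays 1, 2, 3 and 5 gave 10.09, 10.15, 10.31 and 9.17, against 5.75, 5.71, 6.11 and 6.25 on untreated arrays 2, 3, 4 and 5. Every IL-22 array was at least 2.92 above the untreated array of its number, in the 3 pairs that exist, and array 5 again had the smallest gap. The difference was 3.98 (SE 0.15, adjusted p = 2.42e-17). It was 4.45 without natural arrays 4 and 5 and 2.99 (adjusted p = 2.22e-07) within them.

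Neither synthetic ligand moved Il2ra past the test. Its lowest, median and highest values were 4.47, 4.60 and 4.70 with GFP-mCherry, 4.50, 4.76 and 4.84 with mCherry-Fc, and 4.53, 4.65 and 4.85 in untreated synthetic cells. The 3 groups overlapped, at values below the array medians. The difference from untreated cells was -0.07 with GFP-mCherry (95% interval -0.33 to 0.18, adjusted p = 0.688) and 0.06 with mCherry-Fc (-0.19 to 0.32, adjusted p = 0.739). For both ligands the upper bound of the interval lies far below the IL-22 difference. The response to GFP-mCherry minus that to IL-22 was -4.05 (SE 0.20, adjusted p = 1.52e-14), and the response to mCherry-Fc minus that to IL-22 was -3.91 (SE 0.20, adjusted p = 3.67e-14). These were -4.53 and -4.39 without natural arrays 4 and 5.

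The untreated lines already differed. Il2ra was at 4.65 ± 0.11 (SD, n = 6) in synthetic and at 5.96 ± 0.27 (n = 4) in natural untreated cells, lower by 1.30 (SE 0.14, adjusted p = 1.25e-07). All 6 synthetic arrays lay below all 4 natural ones. Without natural arrays 4 and 5 the difference was -1.08 (adjusted p = 5.27e-09). In the order of group means the step below untreated natural cells led to mCherry-Fc cells and was 1.24 (adjusted p = 2.26e-07), and the synthetic groups were not separated.

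Il2rb encodes the signalling beta chain shared by the IL-2 and IL-15 receptors. It differed between the untreated lines. Its lowest, median and highest values were 4.95, 5.38 and 5.71 in untreated synthetic cells, against 6.42, 6.45, 7.08 and 7.50 on untreated natural arrays 2, 3, 4 and 5. Untreated synthetic arrays 13 and 14 were at 4.97 and 4.95, and arrays 7, 9, 11 and 12 at 5.71, 5.43, 5.40 and 5.36. The groups did not overlap, and the difference was -1.56 (SE 0.20, adjusted p = 2.57e-06). Natural arrays 4 and 5 were the higher ones, as they were for Itgam, Mpo and Lyz2. Without them it was -1.13 (adjusted p = 0.000114), and within high replicate numbers -2.19.

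IL-22 arrays 1, 2, 3 and 5 had Il2rb at 6.94, 7.06, 7.19 and 8.00, a difference of 0.43 from untreated natural cells (95% interval -0.02 to 0.89, adjusted p = 0.271) that did not pass the test. The spread within each group came mostly from numbers 4 and 5. In the 3 pairs of the same number IL-22 was higher each time, by 0.50 to 0.74. With the replicate number as a block the difference was 0.63 (adjusted p = 0.000174), and without natural arrays 4 and 5 it was 0.63 (adjusted p = 0.0405), so the call depends on how the numbers are treated. GFP-mCherry and mCherry-Fc gave differences of 0.18 (-0.19 to 0.55, adjusted p = 0.489) and 0.06 (-0.31 to 0.43, adjusted p = 0.841). The ligand responses of the lines did not differ past the test for Il2rb, at -0.26 (adjusted p = 0.621) for GFP-mCherry and -0.38 (adjusted p = 0.411) for mCherry-Fc minus IL-22. With the replicate block these were -0.45 (adjusted p = 0.0114) and -0.62 (adjusted p = 0.00438).

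**Figure D3:**
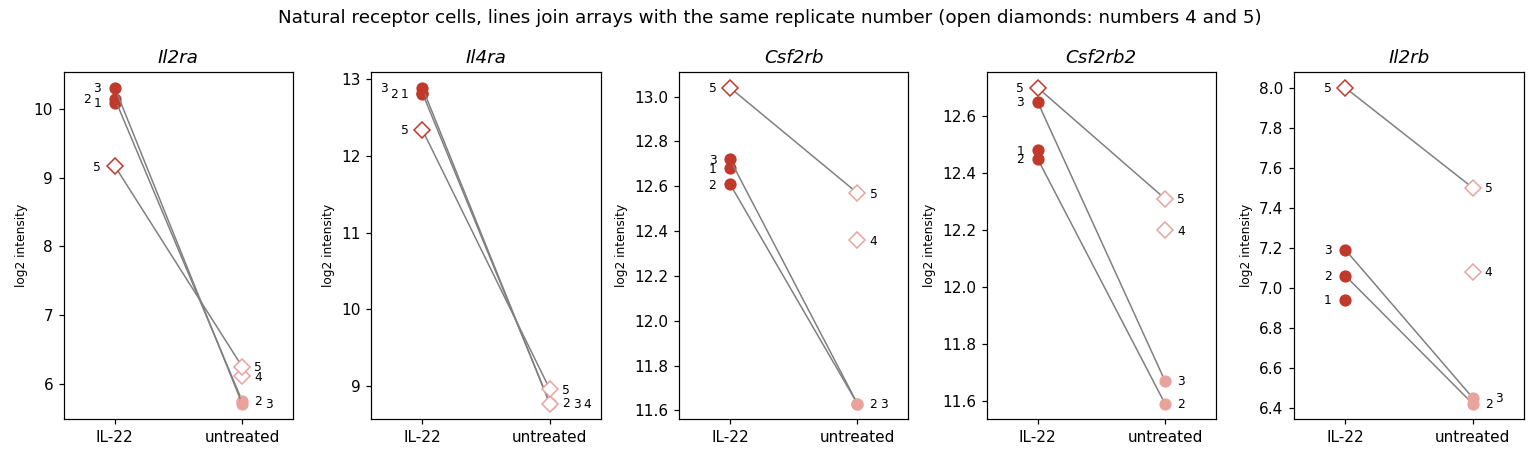
Log2 intensity (vertical axis, a separate range in each panel) of 5 chains in natural receptor cells given IL-22 (left) or untreated (right), with replicate numbers beside the points and lines joining equal numbers; open diamonds are numbers 4 and 5. Il2rb, Csf2rb and Csf2rb2 are higher on arrays 4 and 5 within each group and higher with IL-22 within each of the 3 pairs.

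Il21r, whose product pairs with the gamma chain to bind IL-21, and Il7r, whose product serves IL-7 and, with Crlf2, thymic stromal lymphopoietin, are the other chains of the gamma chain group. Il21r had a lowest, median and highest value of 5.38, 5.48 and 5.62 with mCherry-Fc, against 5.65, 5.71 and 5.96 in untreated synthetic cells. The groups did not overlap, and the difference of -0.25 (SE 0.08, adjusted p = 0.0228) was called. It was -0.21 (adjusted p = 0.136) with the replicate block and lost its call without mCherry-Fc array 15 (adjusted p = 0.0533) or untreated array 7 (adjusted p = 0.071). Within low and within high replicate numbers it was -0.30 (adjusted p = 0.0614) and -0.20 (adjusted p = 0.0918), and under median centring -0.15 (adjusted p = 0.178). With GFP-mCherry, Il21r had a lowest, median and highest value of 5.45, 5.61 and 5.88, a difference of -0.12 (adjusted p = 0.273).

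In natural cells Il21r was at 5.96, 5.95, 6.12 and 6.38 on IL-22 arrays 1, 2, 3 and 5, against 5.65, 6.02, 5.71 and 5.95 on untreated arrays 2, 3, 4 and 5. The groups overlapped, and the difference of 0.27 (95% interval 0.06 to 0.47, adjusted p = 0.0864) did not pass the test. It passed without untreated natural array 3 (log2 0.33, adjusted p = 0.0407) and within high replicate numbers (log2 0.55, adjusted p = 0.0224), a range that holds only array 5 with IL-22, whose spread was taken from the other groups. The difference of responses was called for both ligands, at -0.39 (adjusted p = 0.0407) for GFP-mCherry and -0.52 (adjusted p = 0.00649) for mCherry-Fc minus IL-22. The first of these was -0.30 (adjusted p = 0.155) without natural arrays 4 and 5 and lost its call when any of 10 arrays was left out singly, with adjusted p of 0.0506 to 0.109.

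Il7r stood between 3.53 and 4.06 on all 26 arrays, near the dim end of the array, and its group means spanned 0.07. All of its differences lay between -0.07 and 0.07, and none passed the test. It is the other chain with a STAT dimer motif in the window shown above.

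Il3ra and Csf2ra encode the alpha chains for IL-3 and for granulocyte-macrophage colony-stimulating factor (GM-CSF). Il3ra was level. Its values ran from 8.79 to 9.28 over all 26 arrays, group means from 8.96 to 9.07, and no comparison passed the test. The widest ligand difference was -0.09 (95% interval -0.22 to 0.04, adjusted p = 0.307), with GFP-mCherry.

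Csf2ra was lower with both synthetic ligands. Its lowest, median and highest values were 8.56, 8.64 and 8.75 with GFP-mCherry, 8.63, 8.80 and 8.91 with mCherry-Fc, and 8.96, 9.11 and 9.21 in untreated synthetic cells. No treated array reached the lowest untreated one. Csf2ra fell by 0.44 with GFP-mCherry (SE 0.08, adjusted p = 0.000307) and by 0.31 with mCherry-Fc (SE 0.08, adjusted p = 0.00899). Centring each array on its median moved the median of all genes up by 0.101 with GFP-mCherry and by 0.106 with mCherry-Fc. Of the called genes 54.8% were higher with GFP-mCherry and 51.9% with mCherry-Fc, and these shares became 88.5% and 88.8% under that centring. Csf2ra was then -0.34 (adjusted p = 0.00276) with GFP-mCherry and -0.20 (adjusted p = 0.0752) with mCherry-Fc, which ended the second call. Within high replicate numbers the mCherry-Fc difference was -0.23 (adjusted p = 0.221).

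Natural receptor cells had Csf2ra at 8.24, 8.03, 8.01 and 8.01 on IL-22 arrays 1, 2, 3 and 5, against 7.71, 8.19, 8.39 and 7.78 on untreated arrays 2, 3, 4 and 5. The groups overlapped, and the difference was 0.05 (95% interval -0.16 to 0.27, adjusted p = 0.869). The response to GFP-mCherry minus that to IL-22 was -0.49 (SE 0.13, adjusted p = 0.0117). For mCherry-Fc it was -0.36 (adjusted p = 0.0722), or -0.45 (adjusted p = 0.0195) without natural arrays 4 and 5. Over all arrays Csf2ra was the only chain called higher in the untreated synthetic line, at 9.09 ± 0.09 (SD, n = 6) against 8.02 ± 0.32 (n = 4) in untreated natural cells (log2 1.07, SE 0.09, adjusted p = 3.33e-09). All 6 synthetic arrays lay above all 4 natural ones. The lowest synthetic mean, with GFP-mCherry, was still 0.58 above that of natural cells given IL-22 (adjusted p = 1.57e-05).

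Csf2rb encodes the beta chain shared by the receptors of IL-3, IL-5 and GM-CSF, and Csf2rb2 a second beta chain of mice that serves IL-3. They are neighbouring genes on chromosome 15 with closely similar sequences, so signal may be shared between their probe sets. Csf2rb was at 12.68, 12.61, 12.72 and 13.04 on IL-22 arrays 1, 2, 3 and 5, against 11.63, 11.63, 12.36 and 12.57 on untreated arrays 2, 3, 4 and 5. Csf2rb2 was at 12.48, 12.45, 12.65 and 12.70 on the same IL-22 arrays, against 11.59, 11.67, 12.20 and 12.31 on the untreated ones. For both genes the lowest IL-22 array exceeded the highest untreated one, and numbers 4 and 5 were the highest of their groups.

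IL-22 raised Csf2rb by 0.71 (SE 0.15, adjusted p = 0.00112) and Csf2rb2 by 0.62 (SE 0.12, adjusted p = 0.000482). Without natural arrays 4 and 5 the differences were 1.04 (adjusted p = 1.74e-07) and 0.89 (adjusted p = 1.95e-06), and within high numbers they were 0.57 and 0.44. In a model of the natural groups alone Csf2rb missed the threshold, with an adjusted p of 0.0731.

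Neither beta chain was called higher with a synthetic ligand. Csf2rb2 had a lowest, median and highest value of 11.50, 11.65 and 11.72 with GFP-mCherry, 11.67, 11.84 and 12.00 with mCherry-Fc, and 11.81, 11.98 and 12.17 in untreated synthetic cells. High replicate numbers were higher with mCherry-Fc (11.93, 12.00 and 11.99, against 11.67, 11.71 and 11.74) and in untreated synthetic cells (12.04, 12.12 and 12.17, against 11.81, 11.91 and 11.85). With GFP-mCherry they were not (11.50, 11.67 and 11.69, against 11.63, 11.57 and 11.72). GFP-mCherry and untreated arrays did not overlap. It fell by 0.35 with GFP-mCherry (SE 0.10, adjusted p = 0.0092), a call lost under median centring (log2 -0.25, adjusted p = 0.0703). With mCherry-Fc the difference was -0.14 (95% interval -0.35 to 0.06, adjusted p = 0.287). Csf2rb differed from untreated cells by -0.16 with GFP-mCherry (-0.41 to 0.09, adjusted p = 0.35) and by 0.02 with mCherry-Fc (-0.23 to 0.27, adjusted p = 0.903). Within high replicate numbers GFP-mCherry was lower than untreated cells for Csf2rb (log2 -0.30, adjusted p = 0.0115). It was also lower than mCherry-Fc there for Csf2rb (log2 -0.36, adjusted p = 0.0306) and Csf2rb2 (log2 -0.36, adjusted p = 0.0261). At low numbers the synthetic groups overlapped for Csf2rb. GFP-mCherry arrays 7, 9 and 11 were at 11.85, 11.78 and 11.90, and untreated arrays of these numbers at 11.82, 11.89 and 11.87. The mCherry-Fc arrays 8, 9 and 10 were at 11.84, 11.83 and 11.88. Over all arrays the comparison of these ligands gave -0.18 (adjusted p = 0.751) and -0.21 (adjusted p = 0.539). The responses differed between the lines for both genes. GFP-mCherry minus IL-22 was -0.87 (adjusted p = 0.0022) for Csf2rb and -0.98 (adjusted p = 5.82e-05) for Csf2rb2, and mCherry-Fc minus IL-22 was -0.69 (adjusted p = 0.0165) and -0.77 (adjusted p = 0.00117). The differences without natural arrays 4 and 5 were, for GFP-mCherry, -1.20 and -1.25, and those for mCherry-Fc -1.02 and -1.04. The mCherry-Fc call for Csf2rb was lost without untreated natural array 2 (adjusted p = 0.0552) or 3 (adjusted p = 0.0536).

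Within untreated cells the beta chains gave no call, with synthetic minus natural at -0.06 (adjusted p = 0.86) for Csf2rb and 0.04 (adjusted p = 0.896) for Csf2rb2. That result rests on natural arrays 4 and 5, which raised the natural mean. Without them Csf2rb was 0.36 higher (adjusted p = 0.0231) and Csf2rb2 0.35 higher (adjusted p = 0.0266) in the synthetic line. Within high replicate numbers Csf2rb was lower by 0.36 (log2 -0.36, adjusted p = 0.00455).

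Over the 9 chains, 6 had a GFP-mCherry response below the IL-22 response, where 13.6% of all genes were called (9.23% as higher, 4.4% as lower), and 5 had such an mCherry-Fc response, where 13.4% were called (8.76% as higher, 4.6% as lower). No chain was called in the other direction. Both comparisons share the untreated synthetic arrays and all natural arrays, so they are not separate evidence. Of all genes called in them, 67.7% and 65.6% were higher, and 83.2% and 82.8% under median centring.

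The other chains of these families, taken as a list of 6, were Il5ra, Il9r, Il13ra1, Il13ra2, Il15ra and Crlf2, all measured. This list and the gene lists below were chosen with earlier results of these data known. IL-22 raised 1 of the 6 (16.7%, where 11.4% of all genes were called), Il15ra, the alpha chain that presents IL-15, at 8.31 ± 0.26 against 7.50 ± 0.04 in untreated natural cells (SD, n = 4 each; log2 0.80, SE 0.11, adjusted p = 3.27e-06). Il15ra lies next to Il2ra on chromosome 2. None of the 6 was called with GFP-mCherry, with mCherry-Fc, between these ligands or between the untreated lines (limma), where 1, 1, 1 and 0 had an unadjusted p under 0.05. Il15ra had a smaller response than to IL-22 with each synthetic ligand (log2 -0.67 for both, adjusted p = 0.00144 and 0.00159).

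Among 11 ligand genes of these receptors, all measured, IL-22 lowered 1 (9.09%, where 11.4% of all genes were called), GFP-mCherry 1 (9.09%, against 26%) and mCherry-Fc 3 (27.3%, against 26.9%). These shares are near or below those of all genes, and nothing is read from the counts. Il15, which encodes IL-15, was at 7.44 ± 0.29 with IL-22 and 8.69 ± 0.13 in untreated natural cells (SD, n = 4 each), a difference of -1.25 (SE 0.11, adjusted p = 2.47e-09). It also fell by 0.64 with GFP-mCherry (adjusted p = 1.08e-05) and by 0.45 with mCherry-Fc (adjusted p = 0.000931), and it was 0.55 higher in untreated synthetic than in untreated natural cells (adjusted p = 0.000419). The fall was smaller than with IL-22 for GFP-mCherry (log2 0.61, adjusted p = 0.00478) and mCherry-Fc (log2 0.80, adjusted p = 0.000378). With mCherry-Fc 2 further ligand genes fell, Il13 by 0.32 (adjusted p = 0.000691) and Il2 by 0.17 (adjusted p = 0.0401), the second at a dim 3.99 with mCherry-Fc against 4.16 in untreated synthetic cells. None of the 11 rose with any ligand.

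Among 7 measured kinases and transcription factors that work below these chains, IL-22 raised 3 (42.9%, where 11.4% of all genes were called) and lowered none, namely Stat5a by 1.53 (SE 0.06, adjusted p = 1.86e-17), Stat3 by 0.98 (SE 0.06, adjusted p = 3.17e-12) and the kinase gene Jak2 by 0.74 (SE 0.09, adjusted p = 3.57e-07). GFP-mCherry and mCherry-Fc gave 0 calls among the 7 (limma), where 26% and 26.9% of all genes were called, and 1 and 0 of the 7 had an unadjusted p under 0.05. The difference of responses was called for these 3 genes with both ligands, with GFP-mCherry at -1.58 for Stat5a, -1.03 for Stat3 and -0.73 for Jak2, and with mCherry-Fc at -1.59, -0.89 and -0.70 for the same genes. Tyk2, another Janus kinase gene, had a GFP-mCherry response 0.32 above that to IL-22 (adjusted p = 0.0324). Without natural arrays 4 and 5 it was also called lower with IL-22 (log2 -0.27, adjusted p = 0.0197) and in its mCherry-Fc response against that to IL-22 (log2 0.34, adjusted p = 0.0124). Stat5a and Stat5b were 0.30 and 0.28 higher in untreated synthetic than in untreated natural cells (adjusted p = 0.000206 and 0.00149).

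Of 18 listed and measured genes known to respond to STAT5 or STAT6, 8 (44.4%) were called with IL-22, 10 (55.6%) with GFP-mCherry and 9 (50%) with mCherry-Fc, where 11.4%, 26% and 26.9% of all genes were. IL-22 raised all of its 8. They were Socs3 (log2 4.30), Osm (3.03), Cish (2.06), Pim1 (1.67), Bcl6 (1.49), Socs2 (0.61), Bcl2l1 (0.51) and Socs1 (0.42), and several of these respond to STAT3 as well. GFP-mCherry raised 9, led by the survival kinase genes Pim1 (2.39) and Pim2 (2.33), then Ltb (1.48), Cish (1.06), Socs3 (1.02), Socs2 (0.61), Osm (0.58), Bcl2l1 (0.54) and Ccnd2 (0.37), and lowered Lrrc32 (-0.27). mCherry-Fc raised 8, Pim1 (2.44), Pim2 (1.84), Socs3 (0.94), Osm (0.70), Bcl2l1 (0.70), Socs2 (0.53), Cish (0.43) and Ccnd2 (0.43), and lowered Ccl17 (-0.24). Of the genes best known from IL-4 and STAT6, Fcer2a, Arg1, Retnla and Chil3 were called with no ligand, and Ccl17 with mCherry-Fc alone. IL-22 raised 10 of the 18 without natural arrays 4 and 5, where 12.3% of all genes were called. The genes added were Pim2 (log2 1.00, adjusted p = 3.3e-05) and Tnfrsf9 (0.78, adjusted p = 0.00347), which over all arrays were at 0.58 (adjusted p = 0.0699) and 0.52 (adjusted p = 0.112). Without arrays 4 and 5 Pim1 was 2.16 and Cish 2.46. The median log2 difference of the 18 was 0.46 with IL-22, 0.27 with GFP-mCherry and 0.23 with mCherry-Fc.

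GFP-mCherry exceeded mCherry-Fc for 2 of the 18 (11.1%, where 1.09% of all genes were called). They were Ltb, a cytokine gene of lymphocytes (log2 1.24, adjusted p = 1.13e-06), and Cish, an inhibitor induced by STAT5 (log2 0.63, adjusted p = 0.00112). The GFP-mCherry response fell short of the IL-22 response for Socs3 (-3.28), Osm (-2.45), Bcl6 (-1.35), Cish (-1.0) and Socs1 (-0.44), and exceeded it for Ltb (1.80), Pim2 (1.74), Pim1 (0.72) and Ccnd2 (0.42). The mCherry-Fc response fell short for Socs3 (-3.36), Osm (-2.33), Cish (-1.63), Bcl6 (-1.26) and Socs1 (-0.53), and exceeded it for Pim2 (1.26), Pim1 (0.77) and Ccnd2 (0.48). Without natural arrays 4 and 5 Pim1 was not called in either (log2 0.23 with GFP-mCherry, adjusted p = 0.542, and 0.27 with mCherry-Fc, adjusted p = 0.428), nor was Socs1 with GFP-mCherry (-0.43, adjusted p = 0.0518). With these arrays left out, Pim2 was 1.33 with GFP-mCherry and 0.84 with mCherry-Fc, and Cish was -1.41 and -2.03. Only then were the Tnfrsf9 responses called as smaller than with IL-22 (log2 -0.61 and -0.86, adjusted p = 0.0498 and 0.00633). Over all arrays they were -0.35 (adjusted p = 0.428) and -0.59 (adjusted p = 0.135), not called. Before any ligand 9 of the 18 (50%, where 15.2% of all genes were called) were lower in the synthetic than in the natural line and none was higher. The widest of these were Pim2 (log2 -3.33), Ltb (-1.89), Tnfrsf9 (-1.49), Pim1 (-1.18) and Lrrc32 (-0.88), and the others were Cish (-0.75), Bcl2l1 (-0.37), Osm (-0.35) and Ccnd2 (-0.33). With natural arrays 4 and 5 left out Pim2 was -2.76, Tnfrsf9 -1.04, Pim1 -0.72 and Cish -0.35, all still called. Socs2 was called too (log2 -0.27, adjusted p = 0.0414), against 0.00 over all arrays.

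There were 4 chains with group means spanning at least 1 log2 unit, and for each the 3 genes of most similar pattern were found. Predicted loci, genes with clone names, pseudogenes and small or ribosomal RNA genes were passed over, so closer ones among them are not named. Likeness was the root mean square, over all 26 arrays, of the difference between the values of both genes, each centred on its own mean, so that smaller is closer. Il4ra, whose own values deviated by 1.37 (root mean square), had Socs3 nearest at 0.21, then Osm at 0.34 and Zfp36, which encodes an mRNA-destabilising protein, at 0.36. Il2ra deviated by 1.89 and its nearest genes were farther, the chemokine receptor gene Cxcr2 at 0.53, Lbp at 0.61 and Gadd45g at 0.73. Il2rb deviated by 0.85, with Tnfrsf9, a costimulatory receptor gene, at 0.15, Isg20 at 0.20 and Ptprk at 0.22. Csf2ra deviated by 0.42, with Rps23rg1 and Nudt16l2 both at 0.20 and Slc17a5, a lysosomal transporter gene, at 0.21. These distances are descriptions over arrays that share groups.

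**Figure D4:**
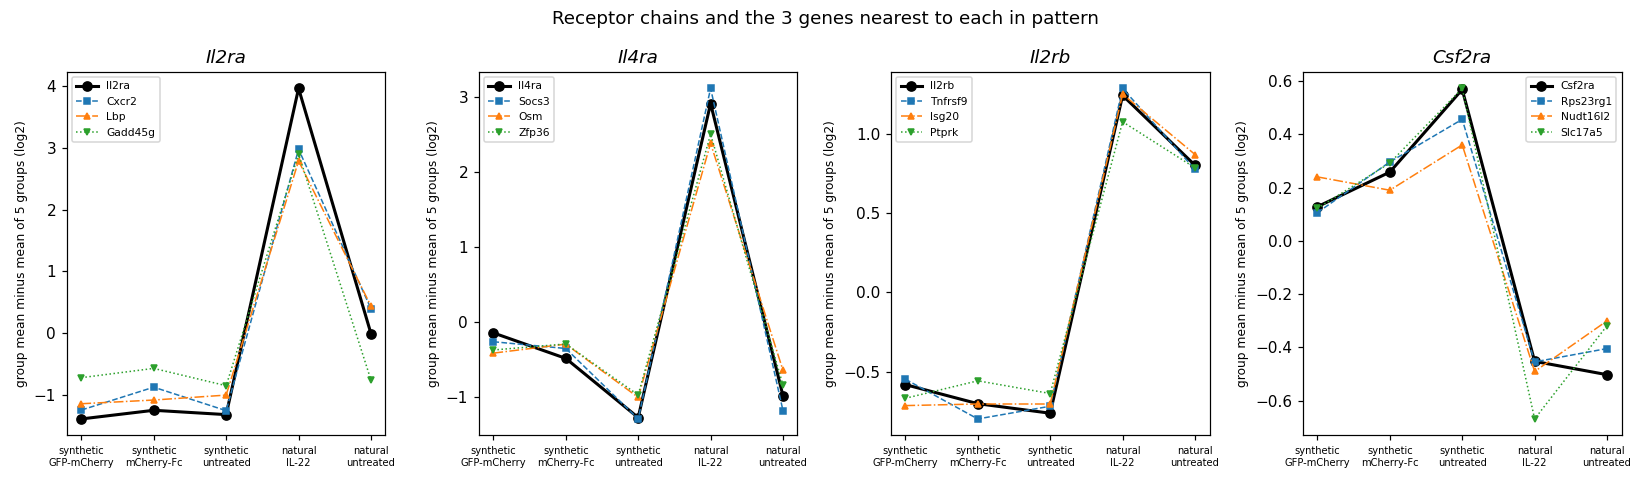
Group mean minus the mean of the 5 group means (log2, vertical axis, a separate range in each panel) for 4 chains (thick black line) and the 3 genes nearest to each (thin lines), across the 5 groups. Socs3 follows Il4ra through all 5 groups, while Gadd45g has its peak in the same group as Il2ra and means of 8.19 in untreated synthetic and 8.28 in untreated natural cells.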

How the data were processed

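Each probe set carries a deposited log2 intensity. The authors produced it with Affymetrix Expression Console 4.0, per the submitters' processing notes, in a core analysis of genes or exons, per the labels. The algorithm, background correction, filters and genome build are not given in the sources used here. Values spanned 1.79 to 14.31 and no pair of arrays held identical values. Of 35556 probe sets, 21789 had 1 symbol in GEO's platform annotation, 1621 several and 12146 none; the 21789 gave 19938 genes, 999 of them with several probe sets, for which the one with the highest mean was used. The number of arrays limits the precision, and no filter on dim genes was applied.

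All 26 arrays in 5 groups were fitted together for each gene by lmFit and eBayes of limma 3.58.1 in R 4.3.3. There were 7 comparisons, with Benjamini-Hochberg adjustment over 19938 genes at 0.05. The fit was tested on simulated data whose noise was independent between arrays. That test did not cover shifts shared by arrays or arrays that stand apart, as seen in these data. Members, gene lists and tests were chosen with earlier results of these data known. All 10 chains, the called members of 4 partner lists and the 3 genes nearest to each chain whose group means span at least 1 log2 unit are named. Replicate numbers of the labels were taken to pair samples where every same-numbered pair deviated together (correlation over 0.1). That held between the natural groups (0.31 to 0.62, 3 pairs), between mCherry-Fc and untreated (0.26 to 0.47, 3 pairs) and between GFP-mCherry and mCherry-Fc (0.11 to 0.27, 3 pairs). Arrays of different numbers were not correlated for this rule. It therefore cannot tell pairs from a shift shared by several numbers, such as natural arrays 4 and 5, and does not show that numbers mark pairs. The main tests left replicate numbers out and are unpaired. Pairing entered only the same-numbered differences and the replicate block given beside them. Alternatives covered normalization, probe sets, filters, the variance prior, array weights, the groups fitted, the replicate block, ranges of replicate numbers and single arrays left out. Promoter sequences are from RefSeq (GRCm38.p6).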

Additional observations from a re-analysis of the deposited data

Results flagged for a closer look

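A total of 3 arrays lay apart from the others of their group for 1 chain each, out of 45 sets of arrays examined, and chance marks about 1 in 20 such sets. Il4ra was at 12.34 on IL-22 array 5 of the natural receptor cells, with the nearest of the other IL-22 arrays at 12.81. On untreated natural array 5 it was at 8.96, with the nearest at 8.78. Csf2ra was at 8.24 on IL-22 array 1, with the nearest at 8.03.

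The response of 6 chains to GFP-mCherry in synthetic receptor cells was below their response to IL-22 in natural receptor cells, tested as a difference of responses in the model of all arrays (limma). The differences were -4.05 for Il2ra (adjusted p = 1.52e-14), -2.76 for Il4ra (1.22e-16), -0.98 for Csf2rb2 (5.82e-05), -0.87 for Csf2rb (0.0022), -0.49 for Csf2ra (0.0117) and -0.39 for Il21r (0.0407). For mCherry-Fc 5 chains differed in the same direction, by -3.91 for Il2ra (3.67e-14), -3.11 for Il4ra (5.52e-18), -0.77 for Csf2rb2 (0.00117), -0.69 for Csf2rb (0.0165) and -0.52 for Il21r (0.00649).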

How the results depend on the processing

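Of 1676 values of single chains under other settings, 1613 kept their side of the threshold, 26 gained a call and 35 lost one. Another 2 changed sign where a call was involved, counted as reversed. Values that were never called could change sign and still count among the 1613, such as Csf2ra with IL-22 (-0.08 to 0.18, against 0.05). The differences of Il2ra and Il4ra with IL-22, and of both responses against it, passed the threshold under every setting tried, with IL-22 at 2.99 to 4.45 for Il2ra and 3.48 to 4.06 for Il4ra. Csf2rb between the untreated lines reversed, at 0.23 within low replicate numbers and 0.36 without natural arrays 4 and 5, against -0.06. The number of chains called with mCherry-Fc was 3, and 1 under median centring or within high replicate numbers. Between GFP-mCherry and mCherry-Fc it was 1, and 0 with the replicate number as a fixed block (limma, no chain at all) or 3 within high numbers. For these changes the cause was not tested. With GFP-mCherry against untreated cells 2 of 6 pairs did not deviate together (correlations of -0.15 to 0.42), and the fixed block added a call for Il2rb (0.18, adjusted p = 0.0414). As a random block (correlation 0.255) the replicate number added Il21r with IL-22 (0.27, adjusted p = 0.0399) and Csf2ra for mCherry-Fc minus IL-22 (-0.38, adjusted p = 0.032). Except as given here and beside the results, the block changed no call. Within high numbers natural IL-22 is 1 array, whose spread was taken from the other groups, and Csf2ra for GFP-mCherry minus IL-22 lost its call there (-0.41, adjusted p = 0.368). Quantile normalization ended the calls of Il21r with mCherry-Fc (-0.15, adjusted p = 0.201) and for GFP-mCherry minus IL-22 (-0.30, adjusted p = 0.126). Counts of called genes also moved. Between GFP-mCherry and mCherry-Fc 218 became 100 with the fixed block, 460 with only these groups, 469 with the number range as a term, 478 with array weights and 504 within low numbers. With IL-22 2277 became 1222 with only these groups and 759 within high numbers, and with mCherry-Fc 5371 became 3234 under quantile normalization. Between the lines 3034 became 1722 with only these groups, 5750 within high numbers and 1875 without natural arrays 4 and 5. For GFP-mCherry minus IL-22 2718 became 4153, 4583 and 916 with the range as a term, within low and within high numbers, and for mCherry-Fc minus IL-22 2664 became 4279, 4253 and 872. Dim probe sets such as Il7r give the least room to see a fall.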
